A study of Mus musculus with 58 samples.

Results

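The genes described here are 7 genes that recycle, make, take up or use inositol: Impa1, Impa2, Inpp1, Bpnt1, Isyna1, Slc5a3 and Cdipt. They were chosen by symbol from the 18088 genes of the deposited table, and all 7 were among the 16606 genes that passed the filter on low values. Polyadenylated RNA of mouse prefrontal cortex was sequenced in 58 libraries of C57BL/6J mice at postnatal day 25. The mice were heterozygous for a Tbl1xr1 knock-in allele (HT) or wild type (WT), where TBL1XR1 works in nuclear receptor corepressor complexes. From day 3 to day 24, 3 weeks in all, the pups of each genotype and sex were dosed by way of the dam's milk with lithium, fluoxetine or vehicle. Strain, age, tissue and route were the same in every group. The 12 groups of genotype, treatment and sex held 5 libraries each, apart from WT lithium females and WT lithium males with 4 each. Which change the knock-in allele carries, the doses and the levels reached in the pups are not given in the sources used here. Nor is it given whether libraries came from different animals, or from which dam or litter. The p-values therefore describe library-to-library spread, which may be technical, and litter cannot be told apart from treatment.

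Receptors coupled to phospholipase C split a membrane phosphoinositide and release inositol phosphates, which phosphatases then strip back to free myo-inositol. INPP1 takes a phosphate from inositol bisphosphate, and IMPA1 and IMPA2 take the last one, so that CDIPT can join the inositol to CDP-diacylglycerol and rebuild phosphatidylinositol. BPNT1 belongs to the same family but acts on the nucleotide left by sulfate transfer, and lithium inhibits this family of magnesium-dependent phosphatases, which is the basis of the inositol depletion hypothesis of lithium action in brain. ISYNA1 makes inositol phosphate anew from glucose 6-phosphate, and SLC5A3 (SMIT1) carries myo-inositol into cells with sodium and is known as an osmotically regulated transporter.

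The coding stretch of the metal-binding motif is shown because it is what the lithium-sensitive phosphatases have in common. Capitals mark the 18 bases that code for the motif and lower case the 21 coding bases on each side, read 5′ to 3′ on the coding strand from GENCODE release M21 transcripts on GRCm38. In Impa1 the capitals lie at chr3:10326124-10326141 on the minus strand, in exon 4 of 9. In Inpp1 they run across the junction of exons 4 and 5 of 6, so that their ends span chr1:52791855-52794479 on the minus strand. In Bpnt1 they lie at chr1:185346690-185346707 on the plus strand, in exon 5 of 9.
Impa1: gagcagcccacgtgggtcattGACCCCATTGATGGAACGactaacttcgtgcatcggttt
Inpp1: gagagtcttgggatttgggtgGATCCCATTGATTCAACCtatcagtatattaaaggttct
Bpnt1: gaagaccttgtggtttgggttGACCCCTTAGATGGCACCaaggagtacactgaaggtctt

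The stretch around the start of Slc5a3 is shown because Slc5a3 and Mrps6, a mitochondrial ribosomal protein gene, begin almost at the same base and share exon sequence. In RefSeq on GRCm38.p6 their starts lie 14 bases apart, at 92058322 and 92058336 on the plus strand of chromosome 16. The stretch chr16:92058122-92058336 holds 200 bases before the Slc5a3 start in lower case and the 15 bases from that start to the RefSeq Mrps6 start in capitals. In GENCODE release M21, used for the exon overlaps, Mrps6 begins earlier, at 92058270, within the lower-case bases.
Slc5a3: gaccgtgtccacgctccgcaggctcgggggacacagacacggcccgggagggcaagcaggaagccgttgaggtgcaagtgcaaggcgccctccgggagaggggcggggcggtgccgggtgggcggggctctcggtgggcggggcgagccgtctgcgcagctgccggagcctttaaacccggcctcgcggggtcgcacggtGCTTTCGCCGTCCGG
This stretch was 74.4% G or C with 27 CG dinucleotides. Promoter windows of RefSeq were held for 4 of the 7 genes (Inpp1, Bpnt1, Isyna1 and Slc5a3) and were searched on both strands for 4 patterns, none of which contains another. The heat shock element GAANNTTC was in 7.86% of 32851 mouse promoter windows of the same length, ACGTG in 19.62%, the tonicity element TonE in 4.96% and CCAAT in 37.41%. The Slc5a3 and Inpp1 windows held none of the 4, and the Bpnt1 and Isyna1 windows held CCAAT alone. Sequence outside these short windows was not searched, so elements farther from the gene starts would be missed.

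The recovered reads came to 22901678 in the shallowest library and 35008274 in the deepest, and the mean count behind a value ran from 145.8 reads for Impa2 to 3341.9 for Cdipt. As a check of the labels, Tbl1xr1 was 2528.5 ± 113.3 normalised reads in HT (SD, n = 30) and 2069.0 ± 124.1 in WT (SD, n = 28), a log2 difference of 0.29 ± 0.020 (SE; limma adjusted p = 1.57e-15). Markers of neurons, astrocytes, oligodendrocytes and cortical layers were present in every treatment group, none of them at 0 throughout. Choroid plexus markers summed to 33055 normalised reads in WT vehicle female 4 and 25453 in HT lithium male 1, against 157 to 486 in the other 56 libraries. The sum of the olfactory bulb list ran from 355 to 19406 and that of the striatum list from 4109 to 17059 over single libraries. In bulk tissue, fewer cells of a type and less RNA per cell cannot be told apart.

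Per kilobase of exon, the order of levels was Cdipt, Bpnt1, Impa1, Isyna1, Inpp1, Slc5a3 and Impa2. Cdipt, which closes the cycle, stood at 1353.7 ± 79.7 normalised reads per kb (SD over 58 libraries) and Bpnt1 at 679.7 ± 39.9. Impa1 stood at 359.9 ± 16.5 and Isyna1, the only route of new synthesis among the 7, at 277.2 ± 27.6. Inpp1 stood at 138.3 ± 7.9, the transporter Slc5a3 at 66.5 ± 13.6 and Impa2 at 28.5 ± 4.1. Each gene was above the next in all 58 libraries, except that Impa1 was above Isyna1 in 57. Of the paired monophosphatase genes, Impa1 was 12.9 ± 1.9 times Impa2 per kb, with single libraries between 9.5 and 18 times. These ratios use GENCODE exon lengths and not the isoforms that were present.

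Slc5a3 had the widest spread of the 7 genes and Impa1 the narrowest. Between the lowest and the highest library, Slc5a3 varied 2.46-fold, Impa2 1.96-fold and Isyna1 1.57-fold. The other four varied between 1.2-fold, for Impa1, and 1.34-fold, for Cdipt. Within groups, the SD on the log2 scale was 0.28 for Slc5a3, 0.22 for Impa2, 0.145 for Isyna1 and 0.057 for Impa1. Counting error alone corresponds to 3.81% of the Slc5a3 value and 8.28% of the Impa2 value. The highest coefficient of variation of Slc5a3 within a group was 30.4%, in WT fluoxetine females.

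**Figure D1:**
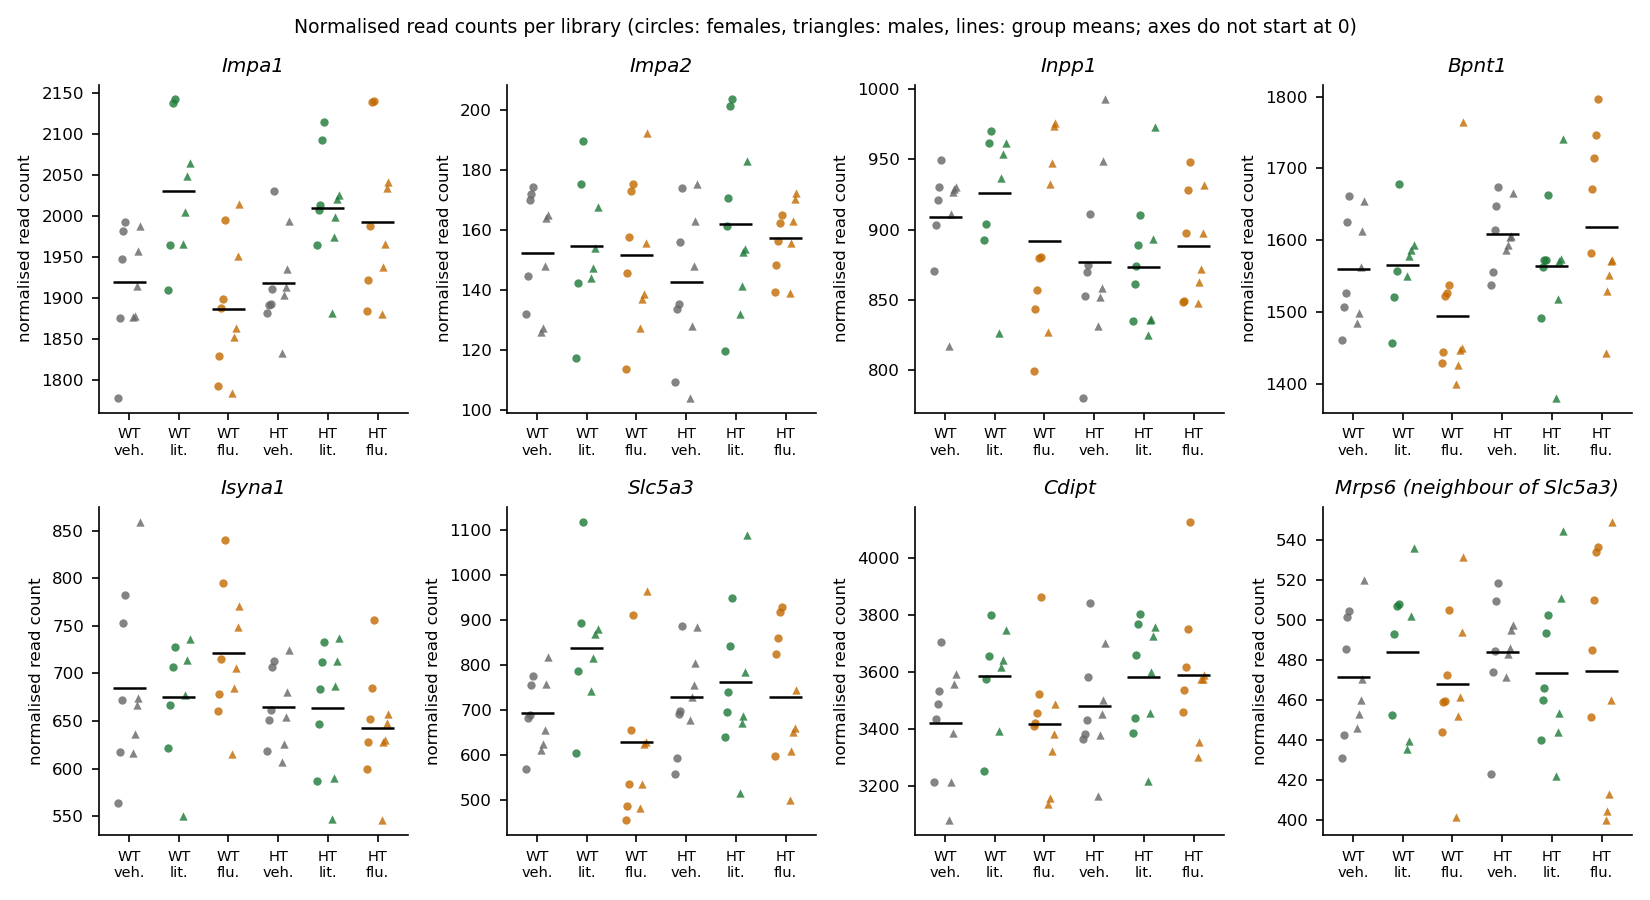
Normalised read counts (vertical axes, which do not start at 0) of the 7 inositol genes and of Mrps6 in every library, by genotype and treatment (veh., vehicle; lit., lithium; flu., fluoxetine), with females as circles, males as triangles and the group mean as a line. Impa1 under lithium lies mostly above vehicle in both genotypes, and Slc5a3 shows the widest spread, from 455.3 to 1118.

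Lithium against vehicle over both genotypes changed 1 of the 7 genes. Impa1, the main inositol monophosphatase gene by level, was 2018.2 ± 72.6 normalised reads in the lithium libraries (SD, n = 18) and 1918.7 ± 60.8 in the vehicle libraries (SD, n = 20). The rise was 5.2%, or 0.074 ± 0.020 on the log2(value + 1) scale (SE; 95% confidence interval 0.034 to 0.11; limma adjusted p = 0.0325 over all genes). It was seen in 16 of 18 libraries, each set against the mean of the vehicle group of its genotype and sex. In the same comparison 2.67% of all genes tested were called, with 1.37% rising and 1.3% falling.

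In WT, Impa1 read 1947, 1778, 1993, 1876 and 1981 in the vehicle females and 1988, 1878, 1915, 1957 and 1877 in the vehicle males. Under lithium it read 2142, 2138, 1965 and 1909 in WT females and 2049, 1966, 2005 and 2064 in WT males. The WT groups overlapped in both sexes: the lowest lithium male lay within the vehicle range, and a pair of lithium females stood above every vehicle library. In HT, Impa1 read 2030, 1911, 1893, 1882 and 1891 in the vehicle females and 1903, 1913, 1935, 1994 and 1833 in the vehicle males. Under lithium it read 2007, 2093, 1965, 2115 and 2013 in HT females and 1974, 1998, 2026, 1881 and 2020 in HT males. These groups overlapped as well, and HT vehicle female 1, at 2030, was above 3 of the 5 lithium females. Over both genotypes, 6 of the 18 lithium libraries were above every vehicle library and 0 were below all of them.

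Within 1 genotype the rise of Impa1 did not pass the threshold. It was 0.081 ± 0.029 in WT (SE; limma adjusted p = 0.314; 7 of 8 libraries) and 0.066 ± 0.027 in HT (limma adjusted p = 0.285; 9 of 10 libraries). The difference between the genotypes was -0.014 ± 0.040 (limma adjusted p = 0.998), with a 95% interval from -0.094 to 0.066. Limma called 0 of the 7 genes in WT, where 0.0301% of all genes were called, and 0 in HT, where 0.385% were. At an unadjusted p under 0.05 the counts were 2 in WT (Impa1 and Slc5a3) and 1 in HT (Impa1), and edgeR and DESeq2 called 0 in each genotype.

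The call of Impa1 lay near the threshold. By limma it was lost when libraries were centred on the median (0.068, adjusted p = 0.11), when trends with GC content and length were removed (0.080, adjusted p = 0.0824), and in each sex alone. It was also lost by limma without any 1 of WT lithium female 1 (0.067, adjusted p = 0.0661), female 2 (adjusted p = 0.0604), male 1 (adjusted p = 0.0551) or male 4 (adjusted p = 0.0526), or WT vehicle female 2 (adjusted p = 0.0531). The other 33 of 38 fits without 1 library kept it.

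The other phosphatase genes did not pass the test under lithium. Impa2, the second monophosphatase gene, was 0.10 ± 0.072 higher (SE; limma adjusted p = 0.515), with an interval from -0.043 to 0.25. It ranged from 103.9 to 175.2 normalised reads under vehicle (median 147.8) and from 117.2 to 203.4 under lithium (median 153.6), and the ranges overlapped widely. Inpp1 differed by 0.010 ± 0.027 (limma adjusted p = 0.898), with an interval from -0.043 to 0.064. Its medians were 907.2 under vehicle and 893.0 under lithium. Bpnt1 differed by -0.018 ± 0.025 (limma adjusted p = 0.786), with an interval from -0.069 to 0.032. It ran from 1461.9 to 1674.5 under vehicle and from 1381.2 to 1740.7 under lithium, so the lithium libraries enclosed the vehicle range. For Inpp1 and Bpnt1 the upper bounds lay below the Impa1 estimate of 0.074.

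The genes of synthesis, uptake and use did not pass the test under lithium either. Isyna1 differed by -0.010 ± 0.047 (SE; limma adjusted p = 0.948), with an interval from -0.10 to 0.083. Cdipt was 0.055 ± 0.026 higher (limma adjusted p = 0.279), with an unadjusted p of 0.0441 from the same model. Its median was 3443.6 normalised reads under vehicle and 3629.3 under lithium, and the whole lithium range of 3215.9 to 3803.7 lay within the vehicle range. Slc5a3 was 0.16 ± 0.087 higher (limma adjusted p = 0.366), with an interval from -0.019 to 0.33. Over the 7 genes the median lithium effect was that of Cdipt, 0.055, against a median of -0.001 over all genes tested. Of the 7 effects 5 were above 0, and of these only that of Impa1 was called. Whether the 7 genes differ from other genes as a set was not tested.

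Slc5a3 was read library by library because it varied the most. Under vehicle it was 569.5, 775.3, 681.9, 756.2 and 688.8 in WT females and 611.8, 818.2, 757.6, 624.4 and 654.7 in WT males. Under lithium it was 785.9, 892.2, 1118 and 604.4 in WT females and 816.0, 867.8, 742.0 and 880.7 in WT males. Of the WT lithium libraries, 7 of 8 were above the mean of their vehicle group and WT lithium female 4 was below it. In HT the vehicle values were 691.6, 594.2, 697.6, 558.4 and 886.6 in females and 883.1, 754.6, 676.9, 804.8 and 729.6 in males. The HT lithium values were 694.7, 640.4, 740.1, 948.2 and 841.8 in females and 1089, 687.4, 785.1, 671.9 and 516.2 in males. In HT the groups overlapped throughout, and the lowest and the highest male were both under lithium.

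The lithium difference of Slc5a3 was 0.26 ± 0.13 in WT (SE; limma adjusted p = 0.514) and 0.051 ± 0.12 in HT (limma adjusted p = 0.92). The difference between them was -0.21 ± 0.17 (limma adjusted p = 0.998), with an interval from -0.56 to 0.14. HT lithium male 1, the highest HT library at 1089, was also a library rich in choroid plexus markers. Without it and WT vehicle female 4, the lithium difference over both genotypes was 0.13 (limma adjusted p = 0.494), and that of Impa1 was 0.072 (limma adjusted p = 0.0497).

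Single markers of vessel-associated cells and microglia also fell with lithium over both genotypes, where 2.67% of all genes were called. Among mural markers limma called 1 of 4, and edgeR and DESeq2 called 2 of 4. The limma call was on Acta2, smooth muscle actin (-0.41 ± 0.085; limma adjusted p = 0.00473). Of 5 endothelial markers the VEGF receptor gene Kdr fell (-0.33 ± 0.087; limma adjusted p = 0.0308), and of 6 microglial markers the chemokine receptor gene Cx3cr1 fell (-0.23 ± 0.053; limma adjusted p = 0.00897). The summed mural level ran from 4377 to 6952 under vehicle and from 3694 to 6521 under lithium. The endothelial sum ran from 3928 to 5585 and from 3427 to 4929, and the microglial sum from 6201 to 8771 and from 6106 to 8294. No marker of these lists was at 0 throughout. The 6 neuron markers had 0 calls by limma, edgeR and DESeq2 and 1 at an unadjusted p under 0.05, and the part of these cell types in the Impa1 result was not tested.

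**Figure D2:**
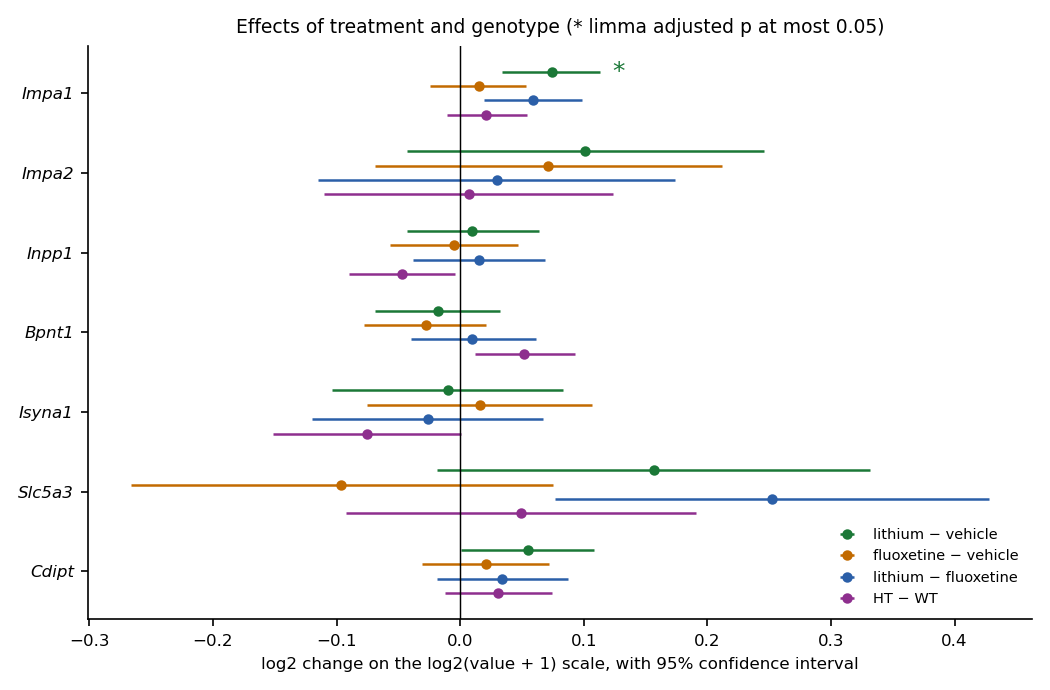
Log2 changes (horizontal axis, log2(value + 1) scale) of the 7 genes for lithium against vehicle, fluoxetine against vehicle and lithium against fluoxetine over both genotypes, and for HT against WT over all treatments. Points are estimates, bars are 95% confidence intervals and the star marks the call of Impa1 under lithium (0.074, limma adjusted p = 0.0325), while the intervals of Slc5a3 and Impa2 are the widest.

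Fluoxetine against vehicle changed none of the 7 genes by limma. Over both genotypes the count was 0 of 7, where 2.55% of all genes were called. It was 0 in WT, where 0.367% were, and 0 in HT, where 0% were. In all of these, 0 of the 7 were under an unadjusted p of 0.05, and edgeR and DESeq2 called 0. The differences over both genotypes ran from -0.096 ± 0.085 for Slc5a3 to 0.071 ± 0.070 for Impa2 (SE), with limma adjusted p = 0.614 and 0.654. The interval of Impa1 over both genotypes was -0.024 to 0.053 around a difference of 0.015. It was -0.079 to 0.03 in WT and -0.001 to 0.109 in HT. The lithium estimate of 0.074 was outside the pooled and WT intervals but within that of HT. The lithium and fluoxetine comparisons share the vehicle libraries and are not independent of each other.

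Under fluoxetine Impa1 read 1793, 1887, 1829, 1899 and 1995 in WT females and 2015, 1863, 1852, 1951 and 1784 in WT males. In HT it read 1922, 2139, 1987, 2140 and 1884 in females and 1966, 2041, 2034, 1937 and 1880 in males. The highest HT values, 2139 and 2140, came close to the highest lithium value of 2142, while the WT values lay within the range of all vehicle libraries. The fluoxetine effect on Impa1 was -0.025 ± 0.027 in WT and 0.054 ± 0.027 in HT (SE). Their difference of 0.079 ± 0.039 had an unadjusted p of 0.0463 and a limma adjusted p of 0.964. It was the only one of the 7 genes under an unadjusted p of 0.05 in the tests of drug effects between genotypes. Limma, edgeR and DESeq2 called 0 of the 7 there, where limma called 0% of all genes.

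Slc5a3 under fluoxetine read 909.9, 655.7, 534.5, 486.9 and 455.3 in WT females and 964.2, 534.4, 629.8, 624.3 and 483.2 in WT males. In HT it read 824.8, 928.5, 917.9, 860.0 and 597.1 in females and 743.7, 608.7, 499.8, 659.1 and 651.3 in males. In WT the highest library of each sex, at 909.9 and 964.2, was above every vehicle library, and the next highest were 655.7 and 629.8. WT fluoxetine female 1, the female at 909.9, also had the highest summed markers of any fluoxetine library for astrocytes (65346), oligodendrocytes (229862), oligodendrocyte precursors (8236), microglia (8880), endothelial cells (5712) and mural cells (6559). Over both genotypes, where limma called 2.55% of all genes, 3 of 4 mural markers (Acta2, Myh11 and Rgs5) and 2 of 5 endothelial markers (Kdr and Cdh5) were called lower with fluoxetine by limma, edgeR and DESeq2. In WT alone limma and edgeR called 0 of either list and DESeq2 1 mural marker, with 3 of each at an unadjusted p under 0.05. The summed mural level ran from 3688 to 6559 under fluoxetine and from 4377 to 6952 under vehicle, and the endothelial sum from 3505 to 5712 and from 3928 to 5585. No marker was at 0 throughout, and their part in the spread of Slc5a3 was not tested.

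Set directly against fluoxetine, Slc5a3 and Impa1 were higher under lithium, by limma at unadjusted p only. Slc5a3 was 19.1% higher under lithium, or 0.25 ± 0.087 (SE; 95% interval 0.077 to 0.43; limma adjusted p = 0.0641). Impa1 was 4.2% higher, or 0.059 ± 0.020 (SE; 95% interval 0.019 to 0.099; limma adjusted p = 0.0569). Limma thus called 0 of the 7 genes, where 7.5% of all genes were called, and 2 were under an unadjusted p of 0.05. Impa1 was called by edgeR (adjusted p = 0.0482), and both were called by DESeq2 (adjusted p = 0.0321 for Impa1 and 0.0488 for Slc5a3). For Slc5a3 a single library decided the call in 6 of 38 cases: without WT fluoxetine female 1 the limma adjusted p was 0.0199, and without WT fluoxetine male 1 it was 0.0205. The other 4 were WT lithium female 4, HT lithium male 5, HT lithium female 2 and HT fluoxetine male 1, with adjusted p between 0.0249 and 0.05. Impa1 was called in 8 of 38, with the lowest adjusted p at 0.0244 without WT lithium female 4.

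Genotype changed none of the 7 genes by limma. Under vehicle the count was 0 of 7, where 0.0181% of all genes were called, with 0 at an unadjusted p under 0.05. Over all treatments it was 0 of 7, where 1.07% were called, with 2 at an unadjusted p under 0.05, and edgeR and DESeq2 called 0 in both. Bpnt1 was 0.052 ± 0.020 higher in HT (SE; limma adjusted p = 0.198), at 1597.2 ± 88.1 normalised reads against 1538.3 ± 87.6 in WT (SD). Inpp1 was lower, at 879.7 ± 47.6 against 907.6 ± 51.1 (SD), a log2 difference of -0.047 ± 0.022 (SE; limma adjusted p = 0.292). Isyna1 differed by -0.075 ± 0.038 (SE; limma adjusted p = 0.333), with an interval from -0.15 to 0.001. For each of these genes the ranges of HT and WT overlapped over most of their length.

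Olfactory bulb markers were lower in HT without passing the test. Their median was -1.13 on the log2 scale in HT against WT, with 6 of 6 lower, 5 of 6 at an unadjusted p under 0.05 and 0 called by limma, edgeR and DESeq2. As markers of 1 tissue, the 6 genes are not separate observations. Over all treatments limma called 1.07% of all genes, and Inpp1, at an unadjusted limma p of 0.0346, had rank 1971 by p among 16606. The sum of the list ran from 355 to 15214 in HT (median 1066) and from 430 to 19406 in WT (median 3666), and no marker was at 0 throughout. With covariates for olfactory bulb, striatum, choroid plexus and leptomeninges, the genotype difference was 0.048 for Bpnt1, -0.078 for Isyna1 and -0.017 for Inpp1 (limma adjusted p = 0.411, 0.406 and 0.86). With these tissues entered together, the Inpp1 difference was smaller by more than 1.5 times. It was not called in either fit, and the part of olfactory bulb in it was not tested.

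Sex and its interactions with the drugs changed none of the 7 genes by limma, edgeR or DESeq2. Between males and females 0.114% of all genes were called, and in both interactions 0% were. At an unadjusted p under 0.05 the counts were 1, 0 and 0. The 1 gene was Cdipt, at 3450.1 ± 195.6 normalised reads in males and 3567.5 ± 203.7 in females (SD, n = 29 each), a difference of -0.046 ± 0.021 (SE; limma adjusted p = 0.644).

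The neighbouring gene Mrps6 was read as a check on Slc5a3, since 159 exon bases belong to both on the same strand and the authors' assignment of those reads could split them. Mrps6 ran from 400.0 to 549.3 normalised reads, narrower than that of Slc5a3, from 455.3 to 1118. Mrps6 differed by 0.002 ± 0.039 under lithium (SE; limma adjusted p = 0.991) and by 0.026 ± 0.039 between lithium and fluoxetine (limma adjusted p = 0.748). After subtraction of group means, Slc5a3 and Mrps6 had a Pearson r of 0.36 over 58 libraries (permutation p = 0.0138) and a Spearman rho of 0.28 (permutation p = 0.0509). Without WT fluoxetine female 1 and WT fluoxetine male 1, the farthest on the Slc5a3 axis, r was 0.27, and without the 2 choroid plexus-rich libraries it was 0.28 (permutation p = 0.0547). The r was thus smaller without either pair of libraries, and no p was computed for the first of these.

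Other members overlap genes too, and the sources used here do not state how reads that fit several transcripts were shared. Impa1 (GRCm38 chromosome 3, 10311956 to 10331439, minus strand) shares 243 exon bases with the same-strand model Gm38303. Cdipt (chromosome 7, 126975914 to 126980501, plus strand) has 169 exon bases opposite Cdiptos. Impa2 (chromosome 18, 67289186 to 67322472, plus strand) has 1264 exon bases opposite B430212C06Rik, whose mean was 10.7 normalised reads, and the library kit keeps the strand. No overlap with exons of another gene was found for Inpp1 (chromosome 1, 52785427 to 52817688, minus strand), Bpnt1 (chromosome 1, 185332149 to 185357777, plus strand) or Isyna1 (chromosome 8, 70594373 to 70597290, plus strand).

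**Figure D3:**
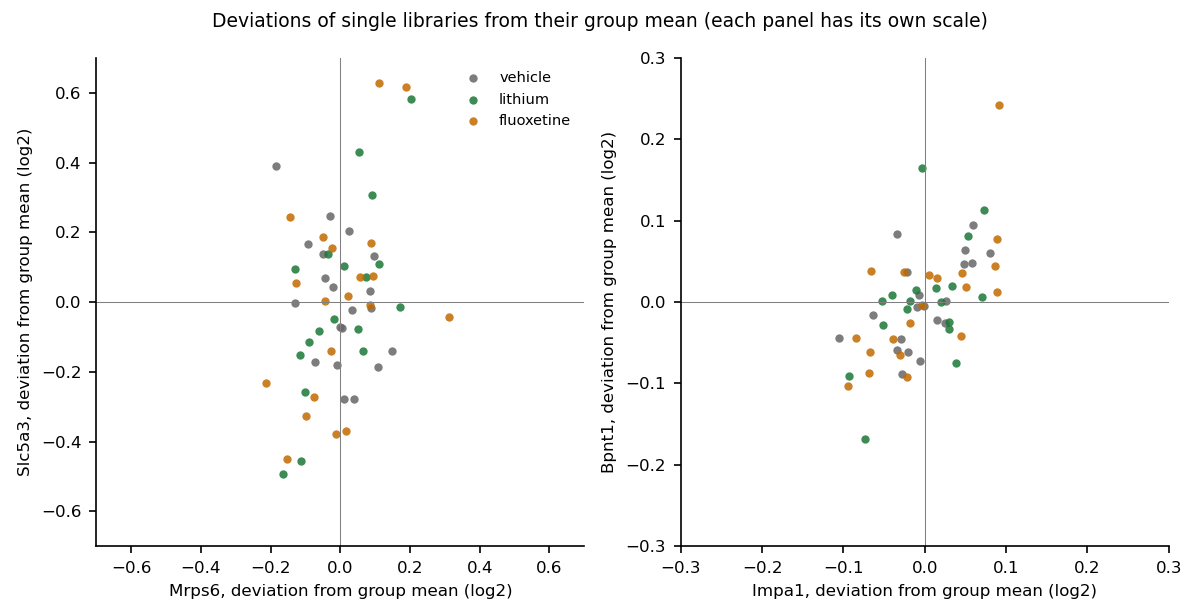
Deviation of each library from its group mean on the log2 scale, for Slc5a3 against Mrps6 (left) and Bpnt1 against Impa1 (right), coloured by treatment, each panel on its own scale. Bpnt1 and Impa1 vary together with r = 0.60, and Slc5a3 varies far more than Mrps6.

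Between libraries of 1 group, 3 of the 21 pairs among the 7 genes varied together beyond permutation within groups (two-sided, 100000 permutations, Benjamini-Hochberg over the 21 pairs). The share of related pairs among all other genes was not computed, and all genes of a library share its depth and tissue makeup. The 3 pairs can therefore not be called particular to these 7 genes. Impa1 and Bpnt1 had a Pearson r of 0.60 and a Spearman rho of 0.61 (permutation p = 1e-05, the smallest that these permutations can give; adjusted permutation p = 0.00021). Without the 2 libraries farthest on the Impa1 axis, r was 0.57. Impa1 and Cdipt had an r of 0.44 and a rho of 0.44 (adjusted permutation p = 0.0258 and 0.0225), and 0.44 without those 2 libraries. Inpp1 and Cdipt went in opposite directions, with an r of -0.41 and a rho of -0.38 (adjusted permutation p = 0.0281 and 0.06), and -0.49 without the 2 farthest. This last relation had an r of -0.25 with centring on the median (adjusted permutation p = 0.207) and of 0.019 once trends with GC content and length were removed (adjusted permutation p = 0.979). The pairs with Impa1 then had an r of 0.60 with Bpnt1 and 0.65 with Cdipt (adjusted permutation p = 0.00014 and 0.000105).

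The paired monophosphatase genes did not vary together detectably, with an r of 0.096 between Impa1 and Impa2 (adjusted permutation p = 0.682). The same held for transporter and synthase, since Slc5a3 and Isyna1 had an r of 0.29 (adjusted permutation p = 0.148). That pair had an r of 0.49 with GC and length trends removed (adjusted permutation p = 0.00346).

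**Figure D4:**
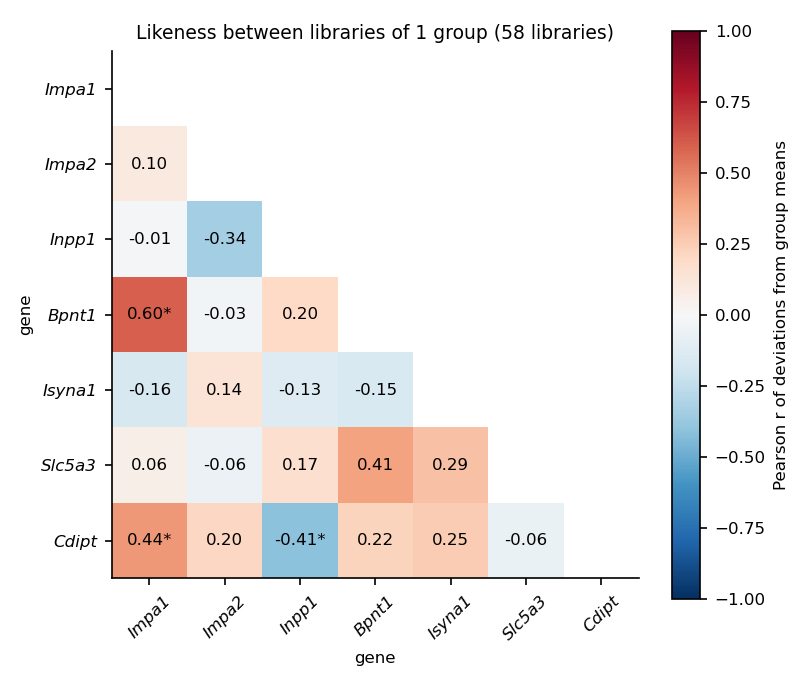
Pearson r between the deviations of each pair of the 7 genes from their group means (colour, and number in each cell) over 58 libraries, with a star where the adjusted permutation p was at most 0.05. The starred pairs are Impa1 with Bpnt1 (0.60), Impa1 with Cdipt (0.44) and Inpp1 with Cdipt (-0.41).

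The genes most like each member were taken by the highest Pearson r of deviations from group means over 58 libraries, among 12735 named genes. These values are a description, since all genes of a library share its depth and tissue makeup. For Impa1 they were Ppp2ca, a catalytic subunit of protein phosphatase PP2A (0.81), Sucla2, a subunit of succinyl-CoA synthetase (0.81), and Atp6v1h, a subunit of the vacuolar proton pump (0.79). For Cdipt they were Mlf2 (0.86), Reep2 (0.85) and the actin-severing cofilin gene Cfl1 (0.85). For Bpnt1 they were the chaperone genes Dnaja1 (0.81), Hspa8 (0.76) and Hsp90aa1 (0.75). For Slc5a3 they were P4ha1, a collagen prolyl hydroxylase (0.83), the RNA methyltransferase gene Mettl16 (0.79) and the lysine methyltransferase gene Setd7 (0.78). For Isyna1 they were the collagen chaperone gene Serpinh1 (0.69), Vwa1 (0.67) and Tie1, an endothelial receptor kinase (0.67). For Inpp1 they were Fam120b (0.73), the tRNA synthetase gene Eprs (0.71) and Cep120 (0.69). Impa2 had the lowest values, with Paqr4 (0.57), the phosphodiesterase gene Pde8b (0.56) and Fap (0.55).

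Beyond the members, 10 lists held 115 genes of the phosphoinositide cycle, inositol transport, the osmotic response, sulfate use and other lithium-sensitive enzymes. Under lithium over both genotypes 2 of the 115 passed the limma test, or 1.74%, beside 2.67% of all genes. Of 16 phosphoinositide kinase genes 1 fell: Pik3r2, a regulatory subunit of PI 3-kinase (-0.10 ± 0.028; limma adjusted p = 0.0369), in 16 of 18 libraries. Its call was lost with centring on the median, with only the groups compared, in each sex alone and without any 1 of 15 of the 38 libraries. Of 11 genes of the osmotic response 1 rose: Slc38a2, an amino acid transporter gene (0.24 ± 0.062; limma adjusted p = 0.0249), in 16 of 18 libraries. Its call was lost in each sex alone and in no other fit. Slc5a3 itself is a classic gene of that response, and its own lithium difference of 0.16 did not pass.

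The remaining lists had 0 calls by limma under lithium. They were 18 genes of CDP-diacylglycerol supply and transfer (2 at an unadjusted p under 0.05), 20 phosphoinositide phosphatases (2), 14 phospholipases C (2), 17 inositol phosphate kinases and phosphatases (4), 3 IP3 receptors (2), 9 sulfate genes (2), 5 other lithium-sensitive enzymes (0) and 2 other inositol transporters (0). DESeq2 called 1 gene each in the lists of CDP-diacylglycerol supply, phosphoinositide phosphatases and inositol phosphate kinases, and edgeR 1 in the last of these. Itpkc, an IP3 kinase gene, differed by 0.21 ± 0.063 (limma adjusted p = 0.0578). Gsk3a and Gsk3b, the kinases that lithium also inhibits, differed by -0.042 and -0.049 (limma adjusted p = 0.474 and 0.511).

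Under fluoxetine over both genotypes, 4 of the 115 genes of these lists passed the limma test, beside 2.55% of all genes. Pitpnc1, a phosphatidylinositol transfer protein gene, was lower (-0.18 ± 0.050, limma adjusted p = 0.0314). Of the phospholipase C list, Plcd3 was higher (0.19 ± 0.049, limma adjusted p = 0.0251) and Plcl1 lower (-0.14 ± 0.039, limma adjusted p = 0.0472). Tpst2, a sulfotransferase gene of the sulfate list, was higher (0.20 ± 0.043, limma adjusted p = 0.00876). Plcd3 was also called in WT alone (0.31 ± 0.069; limma adjusted p = 0.0289), where its value ran from 0.087 to 0.53 over other settings. That call was lost in males only, with only the groups compared, with GC and length trends removed and without any 1 of 7 of the 20 libraries. Over both genotypes the Plcd3 call was lost with GC and length trends removed and in each sex alone, and the Tpst2 call in each sex alone. The Plcl1 call was lost in 9 of 16 other settings and in 25 of 40 fits without 1 library. Pitpnc1 was lost in 4 of 16 settings and without any 1 of 8 libraries.

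Between lithium and fluoxetine 10 of the 115 genes of these lists passed, or 8.7%, beside 7.5% of all genes. Pik3r2 was lower under lithium (-0.16 ± 0.028; limma adjusted p = 3.01e-04), in 18 of 18 libraries. The inositol phosphate kinase genes Itpk1 (-0.14), Ipmk (0.14) and Itpkc (0.21) went in different directions. The others were Pitpnm1 (-0.094), Slc6a6 (-0.13), Inpp4a (-0.089), Pip4k2c (0.12), Sacm1l (0.094) and Pip4p2 (0.092). Of the 10, Pip4k2c lost its call without any 1 of 25 of the 38 libraries, and Pip4p2 without any 1 of 20. Sacm1l lost it without any 1 of 8, Itpkc of 5, Ipmk of 3 and Inpp4a of 2. Over the 16 other settings, the single sexes included, Pip4p2 lost its call in 7, Pip4k2c and Itpkc in 5 each, Sacm1l in 4, Ipmk and Slc6a6 in 3 each, Inpp4a and Itpk1 in 2 each, and Pik3r2 and Pitpnm1 in 1 each. For Itpkc these included the tissue covariates and the fit without the choroid plexus-rich libraries, and for Slc6a6 the fit with only the groups compared.

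In HT against WT over all treatments 2 of the 115 genes passed, beside 1.07% of all genes. Pik3r1, like Pik3r2 a gene of a PI 3-kinase regulatory subunit, rose in 27 of 30 libraries (0.14 ± 0.023, limma adjusted p = 4.68e-04). Its call was lost in each sex alone. Plch2, a phospholipase C gene, fell (-0.12 ± 0.030; limma adjusted p = 0.0322), in 25 of 30 libraries. The Plch2 call was lost in 6 of 16 other settings, among them without the 2 choroid plexus-rich libraries and with the tissue covariates, and without any 1 of 8 of the 58 libraries. Between the sexes 1 gene passed, beside 0.114% of all genes: Hspa1a, an inducible chaperone gene of the osmotic list, was lower in males (-0.40 ± 0.064; limma adjusted p = 8.97e-05).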

How the data were processed

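Polyadenylated RNA of 58 prefrontal cortex libraries was measured with a strand-keeping kit, per the labels' protocols. The authors deposited 1 signal value per gene and library, a read count divided by a size factor per library. Salmon 0.11.2, R 3.6.0, DESeq2 1.19.11 and GRCm38 are named in the submitters' processing notes. The size factors (0.7872 to 1.2293) were recovered from the steps between values: 100% of values were whole reads within 0.0001. Of 18088 gene IDs, 18077 were named by GENCODE M21. Every column belonged to a labelled library.

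Genes whose mean reached 10 or more (16606) were tested on log2(value + 1) with limma 3.58.1 (R 4.3.3), with 12 group means, 46 residual degrees of freedom and Benjamini-Hochberg adjustment over all genes (threshold 0.05). The 14 comparisons averaged, with equal weight, differences between groups that matched in the other factors. The interactions among them were differences between such averages. The test was checked on simulated counts with the same dispersion for every gene and changes larger than that of Impa1. That check does not cover changes as small as that of Impa1 or spreads as wide as that of Slc5a3. Alternatives included edgeR 4.0.16 and DESeq2 1.42.0 on recovered reads. 2 were chosen after the data were seen: leaving out the choroid plexus-rich libraries, and removing GC and length trends. Members and lists were chosen with earlier results of these data known. Named from each list were at most 4 called genes per comparison, by smallest p, or else up to 2 under lithium, and 3 most alike genes per member. No libraries held identical values.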

Additional observations from a re-analysis of the deposited data

Results flagged for a closer look

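In 7 of 84 sets of 4 or 5 libraries (1 gene in 1 group), the highest or lowest library lay apart from the rest by Dixon's criterion, which chance meets in about 1 of 20. Impa1 was 2030 normalised reads in HT vehicle female 1, with the next library at 1911. Inpp1 was 817.2 in WT vehicle male 5, below the next at 910.8. Bpnt1 was 1666 in HT vehicle male 4 (next 1606) and 1765 in WT fluoxetine male 1 (next 1450). WT fluoxetine male 1 also held the highest WT fluoxetine value of Slc5a3, 964.2. Isyna1 was 545.8 in HT fluoxetine male 4 (next 628.1) and 859.3 in WT vehicle male 4 (next 674.1). Cdipt was 3861 in WT fluoxetine female 5 (next 3522).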

How the results depend on the processing

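Of the 7 genes, 1 was called under lithium over both genotypes. The count was 0 with centring on the median, in females only, in males only and with GC and length trends removed, and 0 to 1 without 1 library. Between lithium and fluoxetine the count of 0 became 1 at a minimum mean of 50, 2 with array weights, 1 with covariates for other tissues, 1 with edgeR and 2 with DESeq2, and was 0 to 2 without 1 library. The 3 related pairs became 5 with GC and length trends removed, where Bpnt1 with Cdipt (0.63), Bpnt1 with Slc5a3 (0.47) and Isyna1 with Slc5a3 (0.49) were added and Inpp1 with Cdipt had an r of 0.019 against -0.41. With centring on the median there were 2, since Inpp1 with Cdipt had an r of -0.25 (adjusted permutation p = 0.207).

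Counts over all genes moved more. Under lithium 443 became 1058 with array weights, 849 with covariates, 696 with DESeq2, 0 in females and 8 in males. Under fluoxetine 423 became 886, 674, 260 with GC and length trends removed, 4 in females and 5 in males. Between the drugs 1245 became 2182 with array weights, 454 in females and 38 in males. Between genotypes 177 became 369 with array weights, 306 with DESeq2, 302 with GC and length trends removed, 8 in females and 7 in males. Within 1 genotype the shifts were wider. Lithium in WT went from 5 to 284 with array weights, 39 with DESeq2, 25 with covariates, 15 with GC and length trends removed, 3 with upper-quartile rescaling, and 0 with centring, with only the groups compared, in each sex or without the choroid plexus-rich libraries. Lithium in HT went from 64 to 183 with DESeq2, 114 with covariates, 109 with array weights, 16 with only the groups compared and 0 in each sex. Fluoxetine in WT went from 61 to 859 with array weights, 229 with DESeq2, 225 with covariates, 178 in females, 103 without the choroid plexus-rich libraries, 37 with centring, 22 with GC and length trends removed, 11 with only the groups compared and 0 in males. Fluoxetine in HT went from 0 to 18 with DESeq2, 11 with covariates and 3 with array weights or GC and length trends removed. Genotype under vehicle went from 3 to between 2 and 9, sex from 19 to 40 with covariates, and the interactions from 0 to at most 4. Single-sex fits have fewer libraries. The cause of the other shifts was not tested.

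Same-numbered libraries of different groups did not deviate together on average (mean r -0.003, other numbers 0.001). The numbers are those of the sample titles, which differ from those in the library names for some WT lithium males. The numbers in the library names were not tried. Of 58 libraries, 8 correlated best with their own number. Single same-number pairs had r from -0.488 to 0.576, and whether some of them shared a dam or batch was not tested. With a replicate block the Impa1 lithium change was 0.071 (limma adjusted p = 0.0478), 416 genes were called under lithium, and the calls among the 7 genes were the same. Depth limits Impa2 most, at 145.8 reads on average.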
